A study of Mus musculus with 6 samples.

Results

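Genes of glucose uptake, glycolysis, glycogen storage and the hypoxia response were compared between mouse lung endothelial cells that overexpressed L1CAM and the same cells carrying an empty vector. The set held 43 genes chosen by pathway, with earlier results of these data known. Of these, 41 had a probe set annotated to that gene alone, among 19938 genes measured on the arrays. Where a gene had several such probe sets, the brightest on average was taken. Gpi1 and Eno1, enzymes of the second and ninth steps of glycolysis, had no such probe set and were not analysed here.

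Both groups were endothelial cells of C57BL/6 background derived from mouse lung, stably transfected with the plasmid pcDNA3.1/Hygro(-). In the L1CAM group the plasmid carried full-length mouse L1CAM (written LICAM in the labels), a cell adhesion protein with immunoglobulin domains that guides axons in the nervous system. In the control group it was empty. All cultures grew for 4 days to confluence on crosslinked gelatin in MCDB131 medium with 20% serum, heparin and endothelial growth supplement. Each group had 3 arrays, described as biological replicates. The labels do not say whether each line was a pool or a clone, so the p-values measure the spread between cultures of these lines.

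Most cells break glucose down to pyruvate in the glycolytic pathway and, when oxygen is short, turn pyruvate into lactate. Endothelial cells rely on glycolysis for most of their ATP even with oxygen present, and they store some glucose as glycogen. Pyruvate dehydrogenase kinases (PDKs) switch off the enzyme complex that sends pyruvate into mitochondria. The hypoxia-inducible factors (HIFs) are destroyed in oxygen, because prolyl hydroxylases mark their alpha subunits for the VHL ubiquitin ligase. In hypoxia they persist and switch on glucose transporters, glycolytic enzymes and many other genes.

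Values are log2 expression from RMA, which normalizes arrays and combines the probes of a probe set. Every difference is L1CAM minus control on that log2 scale. A gene was called when the limma p, adjusted by Benjamini-Hochberg over all 19938 genes, was under 0.05. The words rose and fell are used of called genes. The labels held for L1cam itself, which measured 10.49, 10.60 and 10.73 on the L1CAM arrays and 6.50, 6.77 and 7.31 on the control arrays (difference 3.75, limma adjusted p = 0.000112). All 12 measured endothelial markers, Cdh5 and Pecam1 among them, lay above the median of every array (6.55 to 6.58). Vwf (6.82 to 6.88) and Cldn5 (6.79 to 7.13) lay close to it. Cldn5 was the 1 of the 12 that was called (-0.22, limma adjusted p = 0.0446). The mean of the 12 was 11.45 to 11.48 on the L1CAM arrays and 11.54 to 11.56 on the control arrays. Of the 12, 10 had negative differences, and in 9 (75%) the groups did not overlap, against 34.6% of all genes. Eng, an endothelial receptor of the TGF-beta family, had -0.18 (adjusted p = 0.0556). No measured marker of mural cells (0 of 8), fibroblasts (0 of 6), epithelium (0 of 8) or leukocytes (0 of 8), and neither of the 2 measured erythroid markers, was called by limma. Among these 5 lists 1 gene, the fibroblast marker Pdgfra, had an unadjusted p under 0.05. Their list means lay at 5.98 to 6.12, 6.34 to 6.41, 5.85 to 5.98, 6.40 to 6.59 and 6.31 to 6.44 on the L1CAM arrays and at 6.05 to 6.07, 6.40 to 6.45, 5.84 to 5.89, 6.49 to 6.64 and 6.27 to 6.29 on the control arrays, in that order. Not every marker was dim. The leukocyte marker Cd68 read 12.00 to 12.38 over all arrays, and Lyz2, another, read 7.11 to 8.56. Across genes, L1CAM replicate 1 had correlations of 0.9948 and 0.9951 to its own group and of 0.9935 to 0.9952 to the control arrays, whereas that between L1CAM replicates 2 and 3 was 0.9986. Genes of cell division, taken as an index of growth, moved with this split. Relative to the control mean, their average over 14 genes was -0.43, -1.65 and -1.57 on L1CAM replicates 1, 2 and 3 and -0.21, 0.15 and 0.07 on control replicates 1, 2 and 3 (log2). Of those 14 genes, 13 were called lower with all arrays, against 8.19% of all genes. When L1CAM replicate 1 was dropped all 14 were, against 24.8% of all genes called in either direction. Dropping control replicate 1 left 1 of the 14 called. Dropping any of the remaining 4 arrays left 0 of them in limma, as did an ordinary linear model with all arrays. The part of growth in the differences given here was not tested. In such bulk RNA, fewer cells with a transcript and less of it per cell cannot be told apart.

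Of the 41 measured genes, 12 were called, 3 higher and 9 lower in L1CAM cells, which is 29.3% of them. Over all genes tested 15% were called, 6.85% higher and 8.19% lower. By brightness, 34 of the 41 lay above the median of their array on at least 3 arrays. Among genes that did so, 13 of those 34 were called (38.2%), against 30% of all 11409 such genes. The set was chosen with earlier results of these data known, so these shares are a description and no test. The median difference of the 41 genes was -0.04, against 0.02 over all genes. L1CAM and control arrays did not overlap in 16 of the 41 genes (39.0%) and in 34.6% of all genes. The list means on the log2 scale were 9.06 to 9.09 on the L1CAM arrays and 9.18 to 9.20 on the control arrays. The 3 genes that rose were Pfkp, Pgk1 and Ndrg1. The 9 that fell were Tpi1, Pdk2, Pdk3, Egln3, Vhl, Bnip3, Car9, Ppp1r3c and Pygb. In 7 of these 12 genes L1CAM replicate 1 lay nearest to the control mean of the 3 L1CAM arrays. Pfkp, Tpi1, Pdk3, Ndrg1, Ppp1r3c and Pygb kept their calls in each of the 6 fits that dropped 1 array, and the remaining 6 called genes did not. An ordinary linear model, which does not share variance between genes, ended the calls of Tpi1, Pgk1, Pdk2, Bnip3, Car9, Ppp1r3c and Pygb. A total of 7 genes lay below the array median on every array (Slc2a3, Aldoc, Eno2, Ldhb, Pdk4, Ppp1r3b and Pygl), the dim range of the arrays.

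**Figure D1:**
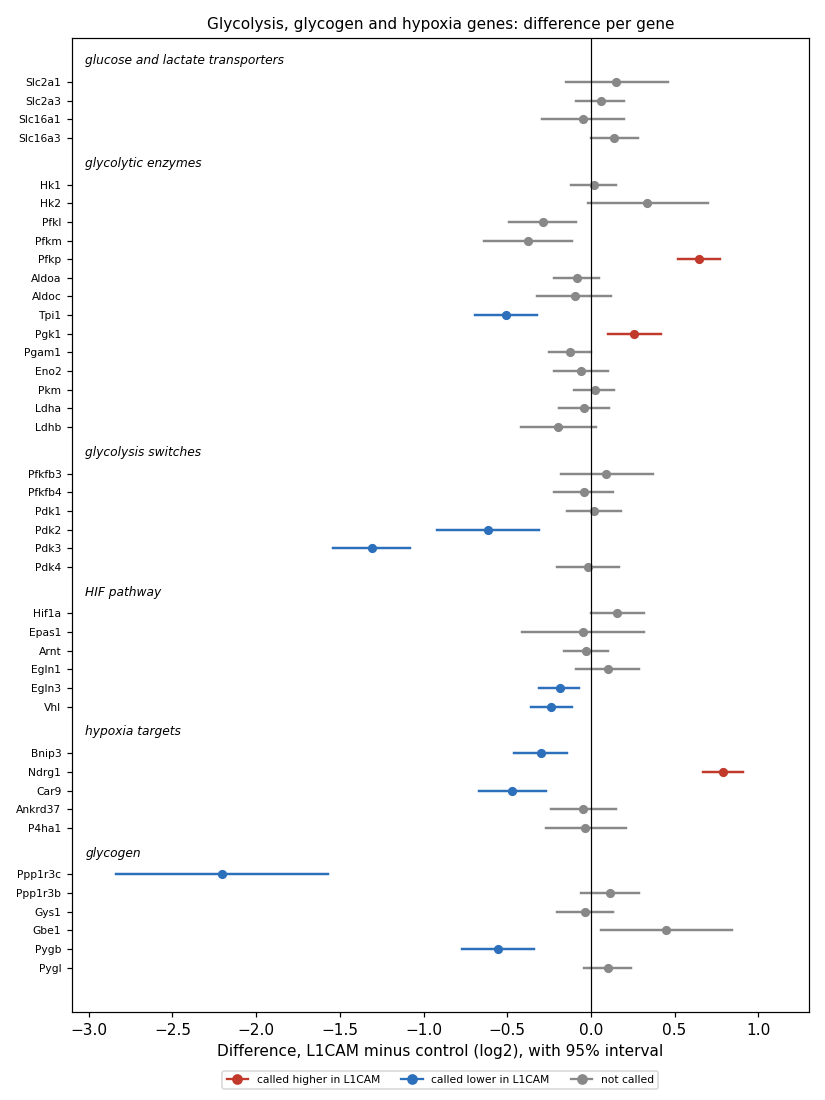
Difference between L1CAM and control cells (log2, x axis) for the 41 measured genes, grouped by role, as points with 95% intervals from limma. Ppp1r3c at -2.20 and Pdk3 at -1.31 lay furthest to the left and Ndrg1 at 0.79 furthest to the right, while most of the 29 genes that were not called lay near 0.

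The promoters of 4 genes that changed are printed to show the letters a HIF factor can bind, since the HIF targets in the set did not all move in 1 direction. They are the 250 bases before the RefSeq start (GRCm38.p6), 5′ to 3′ on the strand of the gene. Capitals mark ACGTG or GCGTG, the core letters of a hypoxia response element, or their reverse complements CACGT and CACGC. Where ACGTG and CACGT overlap as CACGTG, both were counted. The windows lie at chr13:6648772-6649021 (minus strand) for Pfkp, which rose, and at chrX:93832151-93832400 (minus strand) for Pdk3, chr4:43506776-43507025 (plus strand) for Car9 and chr19:36736605-36736854 (minus strand) for Ppp1r3c, which fell.
Pfkp: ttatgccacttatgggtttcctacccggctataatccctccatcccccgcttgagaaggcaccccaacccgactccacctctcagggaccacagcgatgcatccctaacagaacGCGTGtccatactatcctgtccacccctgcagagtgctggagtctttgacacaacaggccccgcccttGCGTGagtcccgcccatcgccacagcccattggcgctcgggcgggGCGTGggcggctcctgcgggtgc
Pdk3: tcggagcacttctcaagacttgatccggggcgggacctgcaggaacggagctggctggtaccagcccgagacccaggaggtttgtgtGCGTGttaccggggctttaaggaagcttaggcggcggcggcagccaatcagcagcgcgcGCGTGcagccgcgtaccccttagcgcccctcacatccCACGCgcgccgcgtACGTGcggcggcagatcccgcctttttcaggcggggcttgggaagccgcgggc
Car9: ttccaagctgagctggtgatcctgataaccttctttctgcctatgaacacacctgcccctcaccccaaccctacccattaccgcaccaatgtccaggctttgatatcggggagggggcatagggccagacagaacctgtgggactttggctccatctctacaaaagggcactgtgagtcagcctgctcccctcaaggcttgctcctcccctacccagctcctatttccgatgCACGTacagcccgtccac
Ppp1r3c: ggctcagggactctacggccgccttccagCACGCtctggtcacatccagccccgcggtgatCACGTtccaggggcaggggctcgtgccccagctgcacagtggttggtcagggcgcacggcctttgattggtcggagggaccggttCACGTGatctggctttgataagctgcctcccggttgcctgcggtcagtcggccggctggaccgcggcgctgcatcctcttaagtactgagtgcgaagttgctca

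The core letters occurred 3 times for Pfkp, 4 times for Pdk3, once for Car9 and 4 times for Ppp1r3c. The match of Car9 began 18 bases before the start. Ppp1r3c had the overlapping pair, whose bases began 104 and 103 bases before the start. Promoter windows were found for 39 of the 43 genes, Ndrg1 not among them. At least 1 window held the core letters in 33 of these 39 genes (84.6%), against 41.5% of all 27025 genes in the promoter table. Counted by window, where genes with several starts weigh more, it was 41 of 53 (77.4%) against 38.6% of 32851. The letters were present for both called-higher genes with an entry (2 of 2), 7 of 9 called-lower genes and 23 of 26 genes that were not called. Tpi1 and Vhl were the 2 called genes with an entry and no match. The set was chosen to hold HIF targets, and all genes were not matched to it for expression or base content. The shares are therefore a description, and no excess was tested. A match is a description of these letters and not of binding.

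None of the 4 transporters of glucose and lactate was called by limma, against 15% of all genes, and 0 had an unadjusted p under 0.05. Slc2a1, the main glucose transporter of endothelial cells, measured 10.60, 11.09 and 11.06 in L1CAM cells and 10.83, 10.65 and 10.81 in control cells. L1CAM replicate 1 was the lowest of the 6 arrays and replicates 2 and 3 the highest. The difference was 0.15 (95% interval -0.15 to 0.46, limma adjusted p = 0.51). Without L1CAM replicate 1 it was 0.31 (adjusted p = 0.0135). Slc16a3, a lactate exporter, measured 6.76, 6.89 and 6.88 in L1CAM cells and 6.75, 6.69 and 6.67 in control cells, a difference of 0.14 (adjusted p = 0.178) with groups that did not overlap. Slc16a1, a lactate and pyruvate carrier, had a difference of -0.045 (95% interval -0.29 to 0.20). Slc2a3, a high-affinity glucose transporter, had 0.06 (95% interval -0.09 to 0.20) at levels below the array medians.

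Among the 14 measured glycolytic enzymes 2 rose and 1 fell (21.4%, against 15% of all genes), with a median difference of -0.07. Of the 14, 11 lay above the median of their array on at least 3 arrays, and among all such genes 30% were called. Phosphofructokinase, the committing step of glycolysis, is built from platelet, liver and muscle subunits. Pfkp, the platelet subunit, measured 8.88, 8.83 and 8.88 in L1CAM cells and 8.18, 8.26 and 8.23 in control cells. Every L1CAM array lay above every control array, with little spread within either group. Pfkp rose by 0.64 (SE 0.05), or 1.56-fold (limma adjusted p = 0.00059).

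The other subunits did not pass the test and had negative differences. Pfkl, the liver subunit, measured 9.44, 9.50 and 9.75 in L1CAM cells and 9.79, 9.89 and 9.87 in control cells (difference -0.29, limma adjusted p = 0.0652). Its call appeared without L1CAM replicate 3 (-0.38, adjusted p = 0.0242). Pfkm, the muscle subunit, measured 9.71, 9.28 and 9.28 in L1CAM cells and 9.78, 9.81 and 9.81 in control cells. L1CAM replicate 1 lay close to the control arrays and the other L1CAM arrays well below them. The difference was -0.38 (limma adjusted p = 0.0664). Dropping L1CAM replicate 1 gave -0.52 (adjusted p = 0.000308). The difference in response between the subunits was not tested.

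Tpi1, triose phosphate isomerase, was the glycolytic enzyme that fell. It measured 11.18, 11.06 and 11.25 in L1CAM cells and 11.56, 11.67 and 11.78 in control cells, so the groups were apart. The fall was -0.51 (SE 0.08), 1.42-fold lower in L1CAM cells (limma adjusted p = 0.00673). Pgk1, phosphoglycerate kinase and an ATP-making step, measured 12.32, 12.49 and 12.53 in L1CAM cells and 12.17, 12.19 and 12.19 in control cells. L1CAM replicate 1 lay nearest to control, and the rise was 0.26 (SE 0.07), or 1.20-fold (adjusted p = 0.0402). Pgk1 kept its call without L1CAM replicate 1 (0.32) and lost it when any other array was left out (adjusted p up to 0.14).

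The hexokinases, which trap glucose in the cell as its phosphate, were not called. Hk2, the inducible form, measured 6.94, 7.52 and 7.57 in L1CAM cells and 7.03, 6.97 and 7.01 in control cells. L1CAM replicate 1 was the lowest of all 6 arrays, and replicates 2 and 3 the highest. The difference was 0.34 (95% interval -0.02 to 0.70, limma adjusted p = 0.197). Dropping L1CAM replicate 1 gave 0.54 (adjusted p = 0.000297).

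The remaining glycolytic enzymes were not called. Aldoa, an aldolase, had a difference of -0.08 (95% interval -0.22 to 0.05). Pgam1, phosphoglycerate mutase, had -0.12 (-0.25 to 0.00, limma adjusted p = 0.18) with groups that did not overlap. Pkm, pyruvate kinase, measured 12.30 to 12.36 in L1CAM cells and 12.28 to 12.33 in control cells, a difference of 0.02 (-0.10 to 0.14). Ldha, the lactate-forming dehydrogenase and a classic HIF target, had -0.04 (-0.19 to 0.11). Aldoa, Pgam1, Pkm and Ldha read 12.02 to 12.86, near the highest values of the arrays (13.68 to 13.82), where the response to more RNA was not tested, so their intervals set no bound on the change in RNA. The same holds for the chosen probe sets of Hk1 and Pgk1, which read 12.17 to 12.86. Aldoc (-0.10), Eno2 (-0.06) and Ldhb (-0.20, adjusted p = 0.233) were dim and not called.

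**Figure D2:**
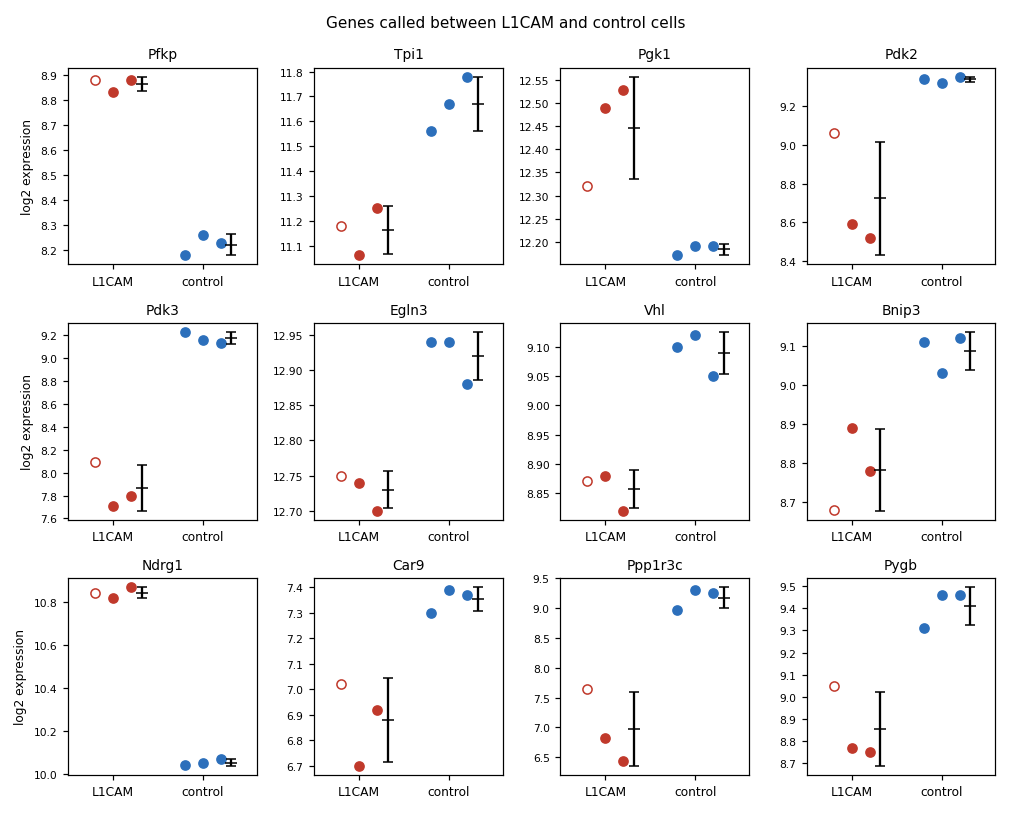
Log2 expression (y axis, a separate scale for each gene) of the 12 called genes on the 3 L1CAM arrays (red, left) and the 3 control arrays (blue, right), with mean and SD beside each group; the open circle is L1CAM replicate 1. The groups are apart in every panel, and in Pgk1, Pdk2, Pdk3, Egln3, Car9, Ppp1r3c and Pygb the open circle lies nearest to control.

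Some of these genes have copies elsewhere in the genome, and their probe sets were examined for that. Affymetrix numbered the probe sets in genome order, so the chromosome of the 10 neighbours on each side was set against that of the gene. Of the 41 chosen probe sets, 4 lay among genes of another chromosome, those of Hk1, Pgam1, Pgk1 and Bnip3, and each of these genes also had a probe set among genes of its own chromosome. Pgk1 gave 0.26 with either (limma adjusted p = 0.041 with the own-chromosome probe set), and Pgam1 gave -0.12 and -0.13. Hk1, the constitutive hexokinase, gave 0.02 with the chosen probe set (adjusted p = 0.889) and 0.14 with the other (adjusted p = 0.131). The annotation also pairs Hk1 with the ribosomal protein gene Rpl17 in 16 probe sets of several genes, which were not used. Ldhb, the lactate-consuming subunit, gave -0.20 with its own-chromosome probe set and -0.71 with the other, which lay among genes of chromosome 19 (adjusted p = 0.00238 over all probe sets). Which transcripts the probe sets on other chromosomes read was not tested.

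**Figure D3:**
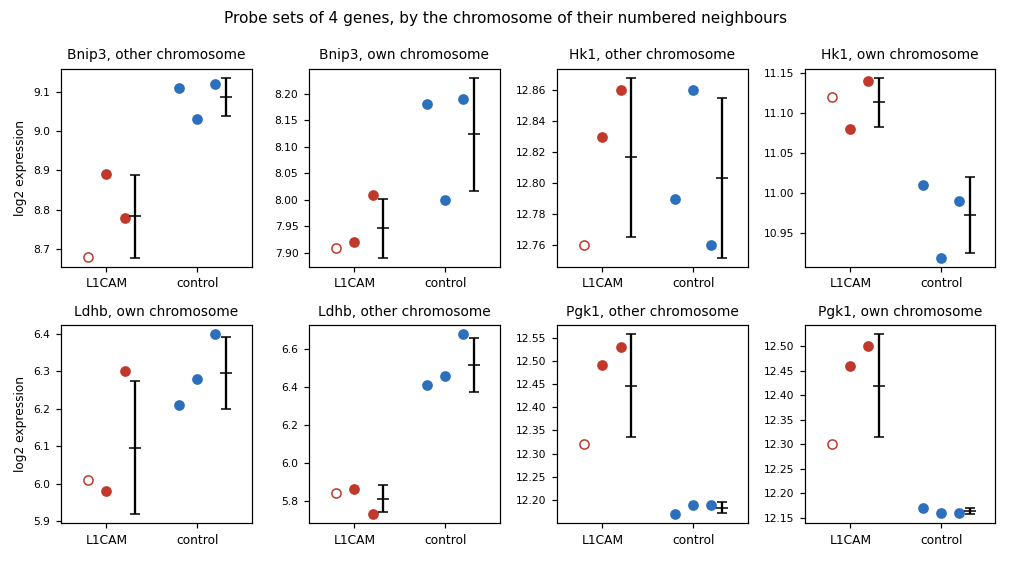
Log2 expression (y axis, a separate scale for each panel) of Bnip3, Hk1, Ldhb and Pgk1 for probe sets numbered among genes of the same or of another chromosome, on L1CAM (red, left) and control (blue, right) arrays with mean and SD; the open circle is L1CAM replicate 1. Pgk1 gave the same difference in both panels, whereas Ldhb differed by -0.20 and -0.71 and Bnip3 by -0.30 and -0.18.

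The enzymes that set the pace of glycolysis and the fate of pyruvate held the second-largest fall. Pdk3, a pyruvate dehydrogenase kinase, measured 8.09, 7.71 and 7.80 in L1CAM cells and 9.23, 9.16 and 9.13 in control cells. All L1CAM arrays lay over 1 unit below the control arrays. Pdk3 fell by 1.31 on the log2 scale (SE 0.10), 2.48-fold lower in L1CAM cells (limma adjusted p = 0.000465), and the difference ran from -1.42 to -1.23 over fits that each left out 1 array.

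Pdk2, the kinase of broadest tissue expression, also fell. It measured 9.06, 8.59 and 8.52 in L1CAM cells and 9.34, 9.32 and 9.35 in control cells. Replicates 2 and 3 lay further from the control arrays than replicate 1 did. The difference was -0.62 (SE 0.13, limma adjusted p = 0.0208). Dropping L1CAM replicate 1 gave -0.78 (adjusted p = 5.62e-05). Pdk2 lost its call when any other array was left out (adjusted p up to 0.0825). 

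The other kinases were not called. Pdk1, a HIF-induced kinase, measured 8.58, 8.43 and 8.49 in L1CAM cells and 8.58, 8.45 and 8.41 in control cells, a difference of 0.02 (95% interval -0.14 to 0.18). Pdk4, the kinase induced by fasting, had -0.02 (-0.20 to 0.17) at levels below the array medians. Pfkfb3, which makes the sugar bisphosphate that activates phosphofructokinase and is the main such enzyme of endothelial cells, measured 8.10, 7.70 and 7.63 in L1CAM cells and 7.65, 7.72 and 7.78 in control cells. L1CAM replicate 1 was the highest of the 6 arrays and the other 5 overlapped. The difference was 0.09 (-0.18 to 0.37), and -0.05 without L1CAM replicate 1 (adjusted p = 0.615). Pfkfb4, its relative, had -0.04 (-0.22 to 0.13).

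Of the HIF pathway itself, the alpha subunits and their partner were not called and 2 negative regulators fell. These were 2 of 6 genes (33.3%), against 15% of all genes. Hif1a and Egln3 read 12.06 to 12.94, near the highest values of the arrays, so their differences set no bound on the change in RNA. Hif1a measured 12.14, 12.34 and 12.32 in L1CAM cells and 12.15, 12.12 and 12.06 in control cells. L1CAM replicate 1 lay among the control arrays. The difference was 0.16 (limma adjusted p = 0.181). Dropping L1CAM replicate 1 gave 0.22 (adjusted p = 0.0296). Epas1, which encodes the HIF alpha subunit typical of endothelium, measured 11.48, 10.93 and 10.80 in L1CAM cells and 11.07, 11.10 and 11.16 in control cells. L1CAM replicate 1 lay above all control arrays and replicates 2 and 3 below them. The difference was -0.045 (95% interval -0.41 to 0.32), and dropping L1CAM replicate 1 gave -0.25 (adjusted p = 0.0258). Arnt, the shared HIF partner, had -0.03 (-0.16 to 0.10), and Egln1, the main oxygen-sensing prolyl hydroxylase, 0.10 (-0.09 to 0.29). HIF activity is set mainly at the protein, which the arrays do not measure.

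Vhl, which marks hydroxylated HIF for destruction, measured 8.87, 8.88 and 8.82 in L1CAM cells and 9.10, 9.12 and 9.05 in control cells. The groups were apart by a small step, and Vhl fell by 0.24 (SE 0.05, limma adjusted p = 0.0246), 1.18-fold lower. Egln3, a prolyl hydroxylase that hypoxia induces, measured 12.75, 12.74 and 12.70 in L1CAM cells and 12.94, 12.94 and 12.88 in control cells, a fall of 0.19 (SE 0.05, adjusted p = 0.049). Both lost their calls when any array but L1CAM replicate 1 was left out (adjusted p up to 0.1 for Vhl and 0.16 for Egln3). Egln3 also lost it under renewed quantile normalization (-0.15, adjusted p = 0.0801) and with equal array medians (adjusted p = 0.0515).

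The 5 hypoxia targets in the set split, with 1 higher, 2 lower and 2 not called (60% called, against 15% of all genes). All 5 lay above the median of their array on at least 3 arrays, and among all such genes 30% were called. Ndrg1, a stress-responsive gene induced by hypoxia and by other signals, measured 10.84, 10.82 and 10.87 in L1CAM cells and 10.04, 10.05 and 10.07 in control cells. The arrays of each group lay within 0.05 of each other, and the groups lay far apart. Ndrg1 rose by 0.79 (SE 0.05), or 1.73-fold (limma adjusted p = 0.00026). Car9, a carbonic anhydrase that is among the genes most tightly tied to HIF, measured 7.02, 6.70 and 6.92 in L1CAM cells and 7.30, 7.39 and 7.37 in control cells. Every L1CAM array lay below every control array, a fall of 0.47 (SE 0.09, adjusted p = 0.0124), 1.39-fold lower. Car9 lost its call without control replicate 2 or control replicate 3 (adjusted p up to 0.062).

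Bnip3, a mitophagy receptor induced by hypoxia, measured 8.68, 8.89 and 8.78 in L1CAM cells and 9.11, 9.03 and 9.12 in control cells, a fall of 0.30 (SE 0.07, limma adjusted p = 0.0272). This probe set was numbered among genes of chromosome 14, whereas Bnip3 lies on chromosome 7. The own-chromosome probe set measured 7.91, 7.92 and 8.01 in L1CAM cells and 8.18, 8.0 and 8.19 in control cells. Those arrays overlapped, and the difference was -0.18 (adjusted p = 0.142). The chosen probe set also lost its call without L1CAM replicate 3, control replicate 1, control replicate 2 or control replicate 3 (adjusted p up to 0.104). Ankrd37, another HIF target, had a difference of -0.05 (95% interval -0.24 to 0.15), and P4ha1, a collagen prolyl hydroxylase, -0.03 (-0.27 to 0.21).

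The genes of glycogen metabolism held the largest change. Ppp1r3c brings protein phosphatase to glycogen, where it activates glycogen synthase. It measured 7.65, 6.83 and 6.44 in L1CAM cells and 8.97, 9.30 and 9.25 in control cells. The control arrays lay close together and the L1CAM arrays were spread but all well below them, replicate 1 the least. Ppp1r3c fell by 2.20 on the log2 scale (SE 0.27, 95% interval -2.84 to -1.57), 4.60-fold lower in L1CAM cells (limma adjusted p = 0.00293). Leaving out 1 array gave -2.54 to -1.94, and the fall of -2.54 came without L1CAM replicate 1. L1CAM replicate 3 read below its array median, so the fold is not exact. Ppp1r3b, the related liver subunit, was dim and had 0.11 (-0.06 to 0.29).

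Pygb, the brain form of glycogen phosphorylase, which releases glucose units from glycogen, also fell. It measured 9.05, 8.77 and 8.75 in L1CAM cells and 9.31, 9.46 and 9.46 in control cells. The groups were apart, with L1CAM replicate 1 nearest to control. The fall was 0.55 (SE 0.09), 1.47-fold lower (limma adjusted p = 0.0089). Pygl, the liver form, was dim and not called (0.10, 95% interval -0.04 to 0.24).

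The genes that build glycogen were not called. Gys1, the glycogen synthase of non-liver tissues, measured 10.33, 10.52 and 10.49 in L1CAM cells and 10.43, 10.45 and 10.56 in control cells, a difference of -0.035 (95% interval -0.20 to 0.13). Gbe1, the branching enzyme, measured 8.59, 9.06 and 9.19 in L1CAM cells and 8.76, 8.40 and 8.34 in control cells. L1CAM replicates 2 and 3 lay above all control arrays and replicate 1 among them. The difference was 0.45 (limma adjusted p = 0.122). Dropping L1CAM replicate 1 gave 0.62 (adjusted p = 0.00675).

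**Figure D4:**
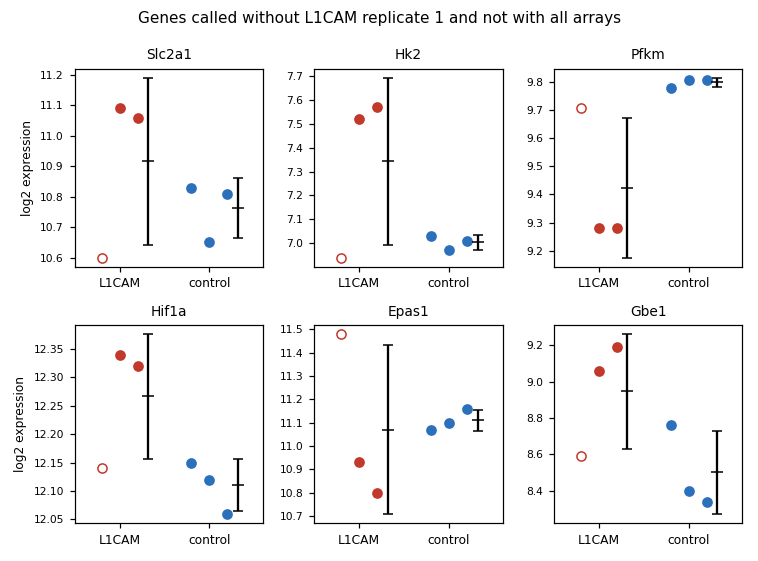
Log2 expression (y axis, a separate scale for each gene) of the 6 genes that were called when L1CAM replicate 1 was left out and not with all arrays, on L1CAM (red, left) and control (blue, right) arrays with mean and SD. The open circle, L1CAM replicate 1, lies apart from the other L1CAM arrays in every panel, which the choice of these genes favoured. For Epas1 it lies on the far side of the control arrays.

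Without L1CAM replicate 1, 18 of the 41 genes were called, 7 higher and 11 lower, and 24.8% of all genes. Slc2a1, Hk2, Hif1a and Gbe1 were then added to the higher genes and Pfkm and Epas1 to the lower ones. The same 12 genes called with all arrays were among the 18.

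Further genes of the same pathways were examined in lists chosen by function. Of 25 other genes of glycolysis and sugar transport, 0 rose and 3 fell by limma, adjusted over all genes. This was a share of 12%, against 15% of all genes. Among the positive differences 1, that of Slc2a2, had an unadjusted p under 0.05. Bpgm, which makes the bisphosphoglycerate of the pathway's side branch, fell by 0.60 (adjusted p = 0.00205) and kept its call whichever array was left out. Tigar, a fructose bisphosphatase that slows glycolysis, fell by 0.35 (adjusted p = 0.024). Slc2a8, an intracellular hexose transporter, fell by 0.345 (adjusted p = 0.0134). Tigar kept its call in 2 and Slc2a8 in 3 of the 6 fits that each left out 1 array. The ordinary linear model kept Bpgm (adjusted p = 0.0443) and ended both other calls. The list gave 5 lower when L1CAM replicate 1 was dropped, and 1 when L1CAM replicate 3, control replicate 2 or control replicate 3 was.

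Of 26 other glycogen genes, 1 rose and 3 fell, a share of 15.4%, against 15% of all genes. Phosphorylase kinase activates glycogen phosphorylase, and genes of 2 of its subunits fell. Phkg2, a catalytic subunit, measured 9.73, 9.70 and 9.73 in L1CAM cells and 10.10, 10.08 and 10.06 in control cells, a tight and separate pair of groups, and fell by 0.36 (SE 0.05, limma adjusted p = 0.00432). Phkb, a regulatory subunit, fell by 0.275 (adjusted p = 0.0409). Gaa, the lysosomal enzyme that degrades glycogen, fell by 0.28 (adjusted p = 0.0285), and Ppp1r3f, another glycogen-targeting subunit, rose by 0.27 (adjusted p = 0.0287). Phkg2 kept its call whichever array was left out. Phkb and Gaa kept theirs in 1 of the 6 such fits, and Ppp1r3f in 2. The list gave 2 higher and 7 lower when L1CAM replicate 1 was dropped, and dropping any other array left 1 lower, Phkg2. Ppp1r3f was called higher when L1CAM replicate 1 or control replicate 3 was dropped. The ordinary linear model kept Phkg2 (adjusted p = 0.0239) and ended the other 3 calls.

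Of 35 other HIF regulators and hypoxia targets, 9 rose and 3 fell (34.3%, against 15% of all genes), with a median difference of 0.04. Over all genes 6.85% were called higher and 8.19% lower. In this list 26 genes lay above the median of their array on at least 3 arrays. Among all 11409 such genes 30% were called. Vegfa, the vascular growth factor, measured 9.65, 10.11 and 10.06 in L1CAM cells and 9.10, 8.99 and 9.09 in control cells and rose by 0.88 (SE 0.12, limma adjusted p = 0.00403). Pgf, a growth factor of the same family, rose by 0.81 (adjusted p = 0.00277). Cited2, which competes with HIF for a coactivator, rose by 0.77 (adjusted p = 0.00139), and the repressor Bhlhe41 by 0.71 (adjusted p = 0.00719). Among genes that fell, Kdm3a, a histone demethylase induced by HIF, measured 9.26, 9.28 and 9.24 in L1CAM cells and 9.85, 9.91 and 9.82 in control cells. Its groups lay well apart (-0.60, adjusted p = 0.000818). Zfp395 (-0.31) and Plod2, a collagen lysyl hydroxylase (-0.29), also fell. Among the 9 genes that rose, Lox lay below the array median on every array, and 8 were called higher once dim probe sets were removed. Vegfa, Pgf, Cited2, Bhlhe41 and Kdm3a were called whichever array was left out, Plod2 in 4 of those 6 fits and Zfp395 in 1. The ordinary linear model called 1 gene of the list higher, Cited2 (adjusted p = 0.045), and 2 lower, Kdm3a and Plod2. It ended the calls of Vegfa (adjusted p = 0.0705), Pgf (adjusted p = 0.0595) and Bhlhe41 (adjusted p = 0.0876). Over those fits the list gave 4 to 11 higher and 1 to 4 lower, with 11 higher and 4 lower when L1CAM replicate 1 was dropped. The higher genes numbered 5 when L1CAM replicate 3 or control replicate 2 was dropped, 6 for control replicate 1 and 4 for control replicate 3.

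**Figure D5:**
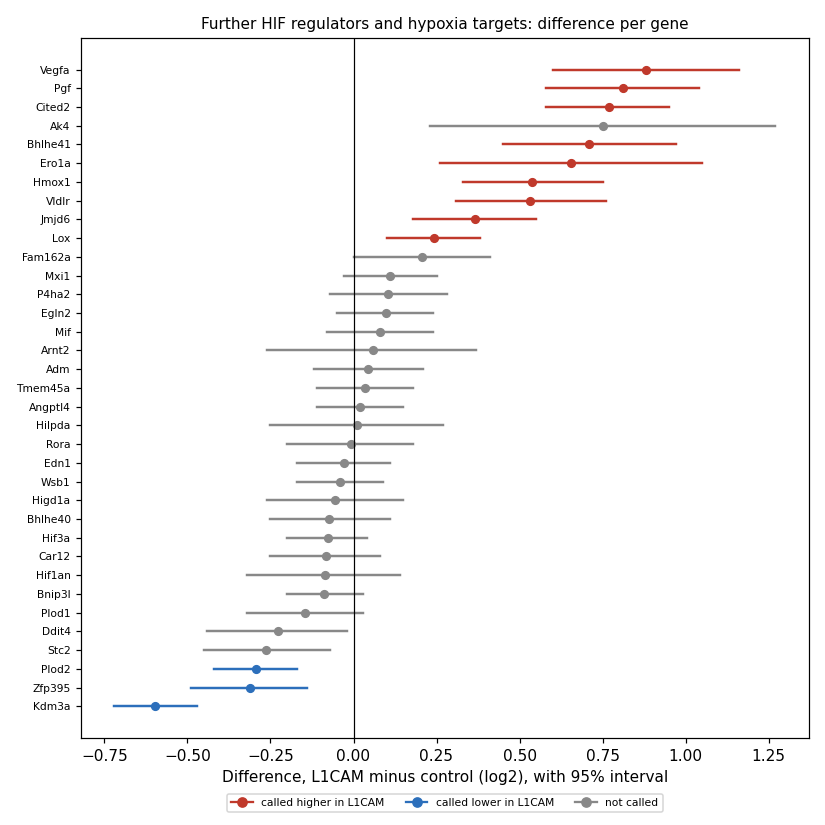
Difference between L1CAM and control cells (log2, x axis) for 35 further HIF regulators and hypoxia targets, as points with 95% intervals from limma. The 9 called higher, with Vegfa at 0.88 at the top, and the 3 called lower, with Kdm3a at -0.60 at the bottom, enclose 23 genes that were not called. Ak4 (0.75, not called) is shown by a probe set numbered among genes of chromosome 2, and its own-chromosome probe set gave 0.11. Bnip3l, Higd1a and Mif are likewise shown by probe sets of other chromosomes, with own-chromosome differences of -0.10, -0.10 and 0.08.

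Downstream of pyruvate, 1 of 27 genes of pyruvate dehydrogenase and the TCA cycle rose and 4 fell (18.5%, against 15% of all genes). Dld, a subunit shared by the pyruvate and oxoglutarate dehydrogenases, rose by 0.40 (limma adjusted p = 0.0228). Pcx, pyruvate carboxylase, fell by 0.67 (adjusted p = 0.0158), Mdh1, cytosolic malate dehydrogenase, by 0.35 (adjusted p = 0.0129), Sdhd by 0.29 and Suclg2 by 0.20. None of these 5 was called in all 6 fits that each left out 1 array, and the list gave 0 higher and 0 lower in limma when L1CAM replicate 3, control replicate 2 or control replicate 3 was dropped. The ordinary linear model gave 2 higher, Dld not among them, and 1 lower, Suclg2 (adjusted p = 0.0415). The list gave 3 higher and 5 lower when L1CAM replicate 1 was dropped, and 0 higher and 1 lower for L1CAM replicate 2 or control replicate 1. The chosen probe set of Suclg2 lay among genes of chromosome X, while its own-chromosome probe set also gave -0.20 (adjusted p = 0.0393).

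In the pentose phosphate pathway and gluconeogenesis 1 of 16 genes rose and 1 fell (12.5%, against 15% of all genes). Both were called whichever array was left out. Pck2, the mitochondrial enzyme that makes phosphoenolpyruvate and a target of ATF4, averaged 11.13 ± 0.17 in L1CAM cells and 9.80 ± 0.18 in control cells (log2, SD, n = 3 each), without overlap. It rose 2.50-fold (limma adjusted p = 0.000726). Prps2, which makes the ribose precursor of nucleotides, fell by 0.795 on the log2 scale (SE 0.13, adjusted p = 0.00779). The ordinary linear model kept Pck2 (adjusted p = 0.0439) and ended the call of Prps2 (adjusted p = 0.0924). This list gave 4 higher and 3 lower when L1CAM replicate 1 was dropped.

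Of 26 regulators of glucose metabolism 3 rose and 0 fell (11.5%, against 15% of all genes). In limma 0 negative differences had an unadjusted p under 0.05. Klf4, a flow-responsive transcription factor of endothelium, measured 10.48, 10.75 and 10.78 in L1CAM cells and 9.77, 9.93 and 9.96 in control cells and rose by 0.78 (SE 0.10, limma adjusted p = 0.0027). Arrdc4, an arrestin relative that lowers glucose uptake, rose by 1.00 (adjusted p = 0.0267), with 8.25, 9.06 and 9.24 in L1CAM cells and 7.86, 7.75 and 7.94 in control cells. Replicate 1 again lay nearest to control. Prkab2, a subunit of the energy sensor AMPK, rose by 0.28 (adjusted p = 0.0415). Klf4 was called whichever array was left out, and Arrdc4 and Prkab2 kept their calls in 1 of those 6 fits each. The list gave 7 higher when L1CAM replicate 1 was dropped and 1, Klf4, when any other array was. The ordinary linear model called 0 genes of the list and ended the call of Klf4 too (adjusted p = 0.0578).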

How the data were processed

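RNA of 6 cultures was measured on Affymetrix arrays. The deposited values are log2 expression per probe set, which the authors made with RMA. The submitters' processing notes name Affymetrix Expression Console 1.1. Its other settings were not found in the labels. Precision is limited by having 3 arrays in each group.

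Of 35512 deposited probe sets, 21789 had 1 gene symbol in the platform annotation, 1621 had several and 12102 were not listed. Entrez identifiers were looked up in the RefSeq gene table (GRCm38.p6), which changed 0 symbols. For 999 genes with several probe sets the one with the highest mean was used, leaving 19938 genes. Groups were compared in R 4.3.3 by the moderated test of limma 3.58.1 (lmFit, eBayes), two-sided, with group as the only term and Benjamini-Hochberg adjustment over all genes. The scripts were tested on simulated data. Promoter sequences are RefSeq's, build GRCm38.p6. Tables and figures used Python 3.11.15, pandas 2.3.3 and matplotlib 3.10.9.

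The genes and lists were chosen with earlier results of these data known. Named genes are all 43 genes of the set, L1cam, and of each further list up to 4 called genes per direction with the largest difference. A few others are named as markers or for a limit of their values. Alternatives were renewed normalization, equal medians, leaving out dim probe sets, averaging the probe sets of each gene, other variance models, the replicate number as a block, leaving out each array and, chosen after seeing the data, own-chromosome probe sets.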

Additional observations from a re-analysis of the deposited data

How the results depend on the processing

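Calls depended on single arrays and on the variance model. Leaving out 1 array gave 1033 to 4952 called genes in all, and among the 41 genes of the set 2 to 7 higher and 4 to 11 lower, with the most when L1CAM replicate 1 was dropped. With unmoderated variances (an ordinary linear model) 581 genes passed, of the set 2 higher and 3 lower. Ldhb was called with the mean of its probe sets (-0.45, adjusted p = 0.00776) and Pfkl once dim probe sets were removed (adjusted p = 0.0473), which tested 11409 genes and 34 of the set. Own-chromosome probe sets changed 1 call of the set, that of Bnip3. No called gene of the set changed direction in any of these fits. The replicate block gave 2067 called genes, of the set 2 higher and 6 lower. Same-numbered arrays correlated at -0.1, -0.102 and -0.027 in their deviations from the group means, and differently numbered ones at -0.088 to 0.123. Deviations within a group cancel, so these values cannot show whether the replicate numbers pair the samples. Background correction could not be varied, since only processed values were used. Dim probe sets cannot be told from background.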
